A study of Mus musculus with 147 samples.

Results

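The genes described here are Nanos1, Nanos2 and Nanos3, the 3 mouse genes of the Nanos family, and Dnd1, which encodes an RNA-binding partner of NANOS2. They were taken by name, and all 4 were present among the 31053 genes of a table of UMI counts (unique molecular identifiers, which count captured transcripts at their 3′ ends). Wild-type cells (WT) came from the offspring of C57BL/6 females and BVSC males, which carry the reporters Blimp1-mVenus and Stella-ECFP, at 28 time-points from embryonic day (E) 6.5 through postnatal day (PND) 0 to PND35 and adult. Cells of E8.5 to E18.5 were sorted on the reporters, on Stella-ECFP alone from E14.5, and cells of E6.5, E7.5 and postnatal testes were picked, the latter by germ cell morphology. Cells of PND14 and PND30 were in part sorted by DNA content. The study picked males by a PCR for Sry at E10.5 and E11.5, and some cell names of E10.5 give no sex. It describes no sexing for E6.5 to E9.5. Helq null cells (KOHelq) carried a short CRISPR deletion in the first exon of Helq made in BVSC embryonic stem cells, in addition to the reporters.

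A pool is the cells of 1 time-point, genotype and replicate. Of 61 wild-type pools with 11598 cells that passed the study's filters, 57 held at least 10 germ cells, 8552 in all, and these pools are the replicates below. A cell was counted as a germ cell when the summed level of 19 germ cell markers reached 100 CPM (counts per 1000000 UMIs) and exceeded that of somatic, endoderm, mesoderm, blood and vessel markers, globins left out, and, from E8.5 to E18.5, when it had been sorted as reporter-positive. Of the cells in the reporter-positive gates of E11.5 to E16.5, 1066 of 1078 met this rule, and 13 of 572 cells in the negative gates passed its marker part. At E6.5 and E7.5 it was met by few of the 1626 cells, and at E8.5 by 0 cells of replicate 1 and 1 cell of replicate 3. With germ cell markers required to be 3 times the others, 1 of 18 and 4 of 16 cells of the E6.5 pools remained. Of the E7.5 pools, 3 of 11, 11 of 31 and 0 of 29 cells remained. The pools of E6.5 and E7.5 may thus hold other cells. The germ cells held a median of 305014 UMIs each, and their pools summed to between 2380295 UMIs (replicate 1 of E7.5) and 197512051 UMIs (replicate 1 of PND30). The study describes the replicates of a time-point as independent biological replicates, and p-values measure the spread between these pools. A lower level in a pool can come from fewer cells with the transcript or from less RNA in each, and a pool sum does not tell these apart. E8.5 therefore rests on 1 pool, E7.5 and E10.5 on 3, and every other time-point on 2. The summed level of 18 Sertoli, interstitial and Leydig cell markers in the germ cell pools was 17.96 to 192 CPM at E13.5 to E15.5 and 267 to 1047 CPM at E16.5 to E18.5.

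NANOS proteins carry a zinc-finger domain, bind target messenger RNAs together with partner proteins, and recruit the CCR4-NOT complex, which removes poly(A) tails. In the mouse, Nanos3 is needed for the survival of primordial germ cells (PGCs), and Nanos2 is switched on in male germ cells after sex determination, where it holds back meiosis, supports the male programme and later maintains spermatogonial stem cells. Nanos1 is dispensable for mouse germ cell development. Dnd1 protects PGCs from death, and its loss leads to germ cell loss and testicular teratomas in some strains.

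The 3 Nanos genes lie on separate chromosomes (build mm10). Nanos1 is at chr19:60755987-60759914 on the plus strand, Nanos2 at chr7:18987400-18988962 on the plus strand, and Nanos3 at chr8:84173731-84185217 on the minus strand. An annotated antisense gene, Gm45058, shares 766 bases with Nanos2, and a longer processed transcript annotated to Nanos3 spans Mir181c and Mir181d. Since the use of strand in counting is not stated, reads of Nanos2 and Gm45058 may not be told apart where they overlap.

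The bases before the annotated start of the 3 Nanos genes are shown because the genes differ in when they were detected. The sequences are from RefSeq (GRCm38.p6), run 5′ to 3′ on the gene's strand, and have each CG dinucleotide in capitals. They lie at chr19:60755737-60755986 for Nanos1, chr7:18987274-18987399 for Nanos2 and chr8:84176553-84176802 for Nanos3. The Nanos2 stretch is shorter because the RefSeq start lies inside the annotated first exon.
Nanos1: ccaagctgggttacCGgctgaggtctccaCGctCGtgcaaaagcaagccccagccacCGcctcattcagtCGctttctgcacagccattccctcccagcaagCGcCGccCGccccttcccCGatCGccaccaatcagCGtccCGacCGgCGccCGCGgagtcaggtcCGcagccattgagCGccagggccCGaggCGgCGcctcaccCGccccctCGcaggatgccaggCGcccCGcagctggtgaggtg
Nanos2: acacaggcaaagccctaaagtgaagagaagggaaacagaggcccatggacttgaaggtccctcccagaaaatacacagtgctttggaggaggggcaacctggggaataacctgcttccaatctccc
Nanos3: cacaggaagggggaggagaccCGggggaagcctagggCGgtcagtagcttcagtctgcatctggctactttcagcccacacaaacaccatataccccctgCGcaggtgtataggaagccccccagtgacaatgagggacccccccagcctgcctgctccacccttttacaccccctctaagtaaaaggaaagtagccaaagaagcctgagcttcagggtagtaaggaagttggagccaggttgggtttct

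In the 250 bases before the RefSeq start, Nanos1 had 25 CG dinucleotides, Nanos3 had 3 and Nanos2 had 0, beside a median of 6 over 32851 mouse promoters. Fewer CG dinucleotides than in Nanos1 were held by 89.3% of these promoters, and 92.1% held more than Nanos2. In the same window, of which only the part farther from the start is printed for Nanos2, and on both strands, the E-box CANNTG occurred 1 time in Nanos1, 0 times in Nanos2 and 2 times in Nanos3, and is present in 66.2% of promoters. GGGCGG occurred 3 times in Nanos1 and 1 time in Nanos3 (32.7% of promoters), CCAAT 1 time in Nanos1 and 2 times in Nanos2 (33.8%), and TATAAA 1 time in Nanos2 (12.4%). Whether any of these letters bears on the levels below was not tested.

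Nanos2 was detected in a fetal window and again, at lower levels, after birth. No UMI of Nanos2 was counted in the germ cells of E8.5, E9.5, E11.5 and E12.5, and at E10.5 it was found in replicate 3 alone, at 0.945 CPM, from 28 UMIs in 2 cells. At E7.5, 2 of the 3 pools held 1 UMI each, 0.117 and 0.110 CPM. At E13.5 the 2 pools had 52.7 and 3.05 CPM, at E14.5 68.6 and 85.9 CPM, and at E15.5 38.8 and 96.3 CPM. The pools of E16.5 had 4.02 and 8.29 CPM, those of E17.5 1.00 and 1.57 CPM, and those of E18.5 0.163 and 0 CPM. All 4 pools of E14.5 and E15.5 were above all 6 pools of E16.5 to E18.5.

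After birth Nanos2 was at 3.04 and 1.24 CPM at PND0 and 1.70 and 2.26 CPM at PND1. Its postnatal mean was highest at PND6, 13.6 ± 6.46 CPM (SD, n = 2), with 18.2 and 9.05 CPM in the 2 pools, and the pools of PND4 (18.8 and 7.12 CPM) and PND5 (15.8 and 9.76 CPM) overlapped them. It was 2.99 ± 1.87 CPM at PND8, 2.03 ± 0.0377 CPM at PND10, 0 in both pools of PND30, and 0.00666 and 0.0141 CPM at PND35. The highest postnatal pool, 18.8 CPM, was below the lowest of E14.5 and E15.5, 38.8 CPM.

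Nanos3 was detected in germ cells well before the fetal window of Nanos2. At E6.5 the pools had 0 and 81.5 CPM, and at E7.5 56.7, 132.5 and 188 CPM. Its means lay between 98.3 and 132.3 CPM from E8.5 to E13.5, and were 218 ± 24.7 CPM at E14.5 and 279 ± 104.5 CPM at E15.5 (SD, n = 2). The pools of E15.5 had 205 and 353 CPM, those of E16.5 12.7 and 47.4 CPM, those of E17.5 8.67 and 9.16 CPM, and those of E18.5 4.94 and 11.2 CPM. The pools of the last 3 time-points were all below every pool of E8.5 to E15.5. After birth it was 12.97 ± 3.03 CPM at PND0, 47.5 ± 16.03 CPM at PND1, 134.2 ± 18.8 CPM at PND5 and 151 ± 17.1 CPM at PND7, its highest postnatal mean. At PND14 it was 47.96 ± 29.4 CPM and at PND30 3.92 ± 0.790 CPM. In replicate 1 of PND14, Nanos3 had 108.3 CPM in cells sorted as 2N and 29.5 CPM in those sorted as 4N. In replicate 2 it had 30.8 CPM in cells sorted as 2N and 25.8 CPM in those with no stated DNA content. The high level of 2N cells was thus seen in replicate 1 alone. How this sort bears on the levels of PND14 was not tested.

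Nanos1 had its highest levels after birth. From E8.5 to E16.5 its means lay between 0.183 and 4.86 CPM, at E18.5 the pools had 3.70 and 10.0 CPM, and at PND0 8.58 and 10.2 CPM. It was 18.99 ± 1.46 CPM at PND3, 24.98 ± 2.20 CPM at PND7 and highest at PND10, 33.4 ± 0.915 CPM (SD, n = 2). The pools of PND8 (27.8 and 38.1 CPM) overlapped those of PND10 (32.8 and 34.1 CPM). At PND30 its level was 0.293 ± 0.364 CPM.

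Dnd1, at chr18:36763671-36766214 on the minus strand, shares 140 bases with Wdr55 on the opposite strand, where their reads may not be told apart. It was detected in germ cells of every time-point. The pools of E6.5 had 20.2 and 280 CPM. Its means lay between 251 and 287 CPM from E8.5 to E13.5 and were 325 ± 12.4 CPM at E14.5, 468 ± 29.7 CPM at E15.5 and 462 ± 45.5 CPM at E16.5. They were 265 ± 65.9 CPM at E17.5 and 130 ± 26.1 CPM at E18.5, between 111.6 and 162 CPM from PND0 to PND10, and 86.3 ± 41.6 CPM at PND14. The lowest mean was that of PND30, 8.11 ± 2.78 CPM. E15.5 and E16.5 overlapped each other and lay above all other time-points.

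**Figure D1:**
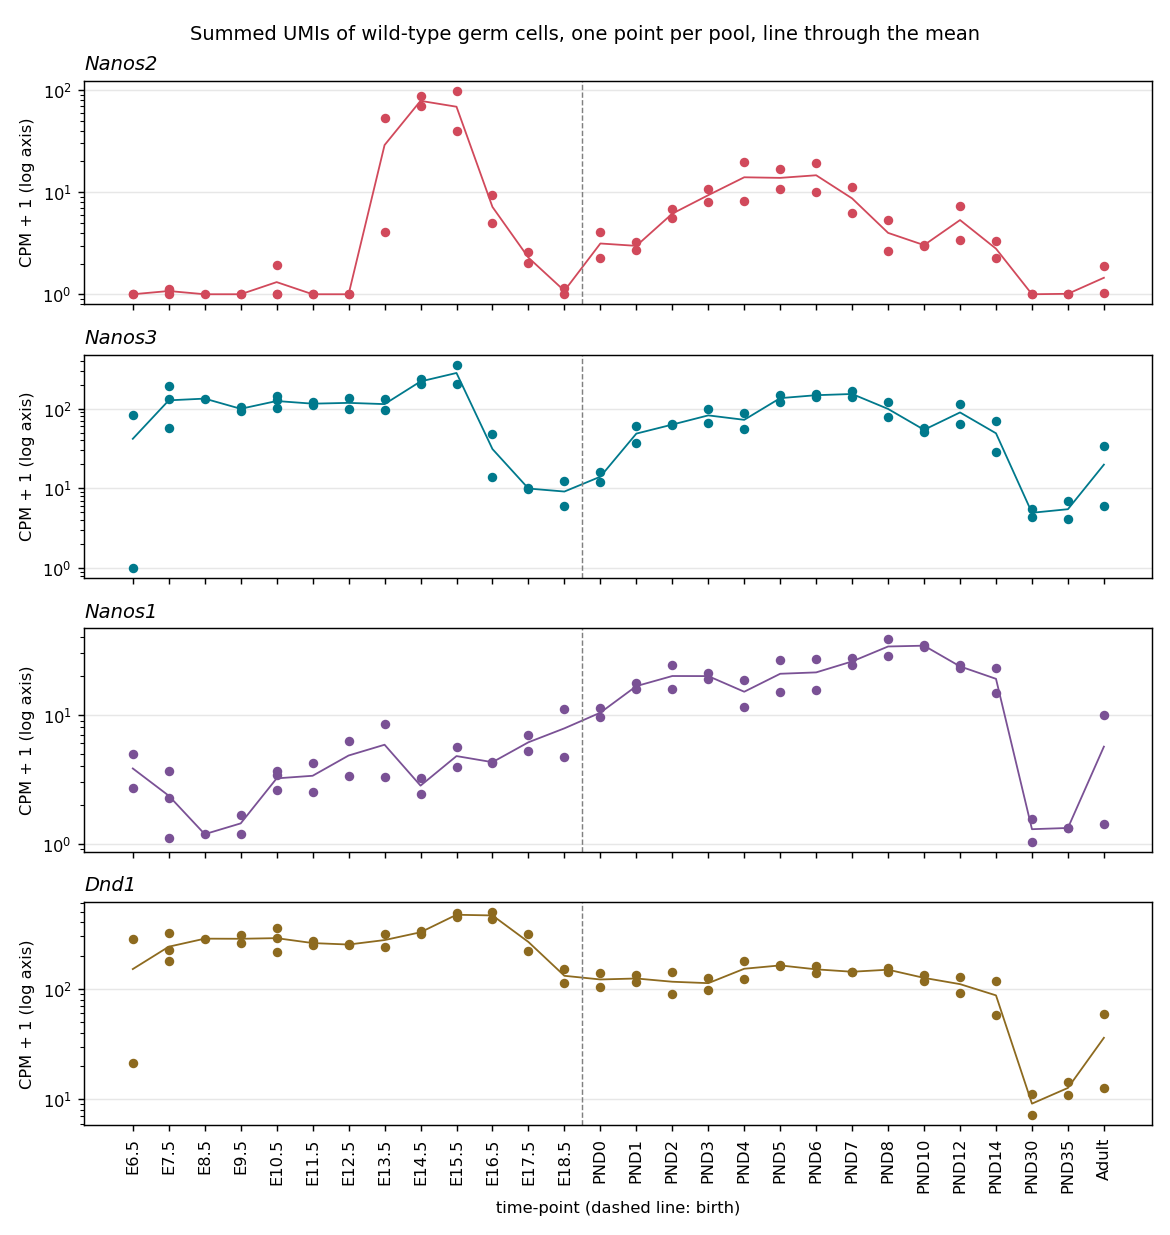
Level of each gene in wild-type germ cells by time-point, 1 point for each pool (CPM + 1, log axis, 1 panel for each gene), with a line through the means and a dashed line at birth. Nanos2 is at or near the bottom of its axis up to E12.5, peaks at E14.5 and E15.5 and has a second, lower rise to PND6. Nanos3 and Dnd1 have their highest means at E15.5 and are at 3.92 and 8.11 CPM at PND30, and Nanos1 is highest at PND8 and PND10.

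Ordered by mean level over the 28 time-points, each of the 4 genes had 27 pairs of neighbours in the order, and for each gene the pools overlapped in 24 of them. The gaps in the order of Nanos2 were between PND5 and PND3, E17.5 and adult, and PND35 and the time-points at 0. For Nanos3 they were between E14.5 and PND7, PND2 and PND10, and PND0 and E17.5. For Dnd1 they were between E16.5 and E14.5, E7.5 and PND5, and PND8 and PND7, and for Nanos1 between PND8 and PND7, PND7 and PND12, and PND4 and PND0.

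From E13.5 to E16.5 the shares of Nanos2-positive cells followed its levels. After each cell was thinned to 50000 UMIs, Nanos2 was found in 56.8% and 7.05% of germ cells in the 2 pools of E13.5, 68.2% and 76.9% at E14.5, 50.5% and 90.9% at E15.5, and 7.61% and 18.3% at E16.5. Without thinning, the mean share at E14.5 was 89.3%. Negative-gate cells of the same pools are set beside them, and the source of their transcripts was not tested. At the same thinning, Nanos2 was found in 17.3% and 4.66% of them at E13.5, 2.18% and 1.43% at E14.5, and at most 0.729% at E15.5 and E16.5. In replicate 2 of E13.5 the unthinned share was 10.9% in germ cells (median 227574 UMIs) and 27.1% in the negative gate (median 241900 UMIs). The unthinned share of that pool was thus below that of its negative gate.

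Thinned shares of Nanos3 were 85.3% to 98.5%, as means, from E8.5 to E15.5, 38.7% at E16.5 and 14.2% at E18.5, and 91.95% at PND5. Those of Dnd1 were at least 98.2%, as means, from E8.5 to E17.5. Nanos1 was found in 59.6% ± 1.85 (SD, n = 2) of thinned germ cells at PND10, its highest share, and in 0.905% to 11.6% as means from E8.5 to E16.5. Over the 16 pools of E11.5 to E18.5, the thinned share was higher in germ cells than in the negative gate in 16 for Dnd1, 15 for Nanos3, 15 for Nanos1 and 11 for Nanos2. In the negative gate it ranged from 0 to 52.5% for Nanos3, from 8.75% to 63.8% for Dnd1 and from 0 to 7.08% for Nanos1. In replicate 1 of E17.5 it was 22.8% for Nanos3 against 19.5% in germ cells, so that the share of that pool was not above that of its negative gate.

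Time-points were compared on the UMI sums of the pools in 1 edgeR quasi-likelihood fit over all 57 pools, with Benjamini-Hochberg adjustment over 27426 genes and a false discovery rate of 0.05. Folds are between the means of the fitted log2 levels of the time-points named. The first comparison, gonadal PGCs (E11.5 and E12.5) against migrating PGCs (E9.5 and E10.5), called 0 of the 4 genes, by edgeR or by DESeq2. By edgeR 4.03% of all genes were called. At an unadjusted p under 0.05 by edgeR the count was 1 of the 4, Nanos1, beside 4281 of 27426 genes. Nanos1 had 3.10 ± 1.63 CPM (SD, n = 4) in gonadal and 1.499 ± 1.06 CPM (n = 5) in migrating PGCs, with overlapping pools and log2 fold 1.55 ± 0.63 (SE), adjusted p = 0.185 by edgeR. The log2 fold was 0.01 ± 0.57 for Nanos3 and −0.22 ± 0.35 for Dnd1, and Nanos2 gets no fold because its only pool with UMIs had 0.945 CPM. Migrating PGCs include cells of unstated sex, and the part of sex was not tested.

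From E12.5 to E13.5, when the male gonad has formed its cords, Nanos2 was the only member called, beside 0.117% of all genes that were higher and 0.128% called in either direction (32 higher and 3 lower). Against a floor of 3 UMIs in the smaller library of E12.5, 0.145 CPM, its level was at least 364-fold higher in replicate 1 of E13.5 and at least 21.03-fold in replicate 2, with adjusted p = 0.0165 by the edgeR quasi-likelihood test. Without replicate 1 of E13.5 the edgeR adjusted p was 0.255, and without replicate 2 of every time-point 0.543. The other 3 genes had overlapping pools, with log2 folds of 0.43 ± 0.90 for Nanos1, 0.05 ± 0.85 for Nanos3 and 0.25 ± 0.52 for Dnd1 (SE). Of the lists of pathway genes, 1 gene was called, Taf7l, a germ cell TFIID subunit of the meiotic entry list, with log2 fold 4.64 ± 0.75. Gfra1, Kit, Stra8 and Dazl did not pass, with log2 folds of 0.48 ± 1.38, −0.80 ± 0.61, 2.32 ± 1.16 and 0.54 ± 0.53, and Dnmt3l had no UMI at either time-point.

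Between mitotic PGCs (E11.5 and E12.5) and germ cells in mitotic arrest (E15.5 and E16.5), 44.5% of all genes were called, 28.4% as higher, and of the members only Nanos2, as higher. All 4 earlier pools had 0 CPM, and the later ones were at least 27.8- to 664-fold above the floor, with adjusted p = 6.05e-07 by edgeR. Dnd1 was at 465 ± 31.6 CPM (SD, n = 4) in arrest and 255 ± 11.2 CPM before it, with no overlap (430 to 494 against 247 to 271 CPM), but its log2 fold of 0.53 ± 0.37 (SE) did not pass, at adjusted p = 0.259 by edgeR. The median log2 fold of all genes was 0.73 in this comparison and the fold of Dnd1 lay below it. With the 8 pools alone in the fit the log2 fold was again 0.53, with edgeR adjusted p = 0.00223. Nanos3 had 98.5 to 135.3 CPM before arrest. Its pools of E15.5 (205 and 353 CPM) lay above this range and those of E16.5 (12.7 and 47.4 CPM) below it. The log2 fold of Nanos3, −0.65 ± 0.60, averages these 2 time-points. Nanos1 had 2.94 to 4.62 against 1.53 to 5.31 CPM (−0.09 ± 0.64). The somatic marker sum was 34.9 to 59.6 CPM in the earlier and 108.4 to 727 CPM in the later pools, and 8 of the 18 markers rose. Their part in these differences was not tested.

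The pathway lists are described by counts in the same comparison, beside the median of 0.73 over all genes. Of the male germ cell programme, which holds genes of piRNA and DNA methylation control, 8 of 8 genes rose (median log2 fold 4.53), among them Tdrd9 (7.96 ± 0.58) and Piwil4 (6.19 ± 0.75). Dnmt3l, a cofactor of DNA methylation, went from 0 to 336 CPM as a mean, at least 2319-fold. Of the stem cell list 7 of 11 genes rose and 2 fell (median 4.51, and 3.16 with Zbtb16 and Pax7, which had no UMI before arrest, at their lowest possible fold). Among those that fell was Etv5, a transcription factor of stem cell maintenance (−4.13 ± 0.40).

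Of the meiotic entry list 7 of 10 genes rose and 1 fell (median 2.22). Stra8, the inducer of meiosis that NANOS2 is known to hold down, had 16.05 to 40.8 CPM at E15.5 and E16.5 and 0.977 and 1.64 CPM at E12.5, with 0 and 0.0404 CPM at E11.5 (log2 fold 6.92 ± 1.14 over both). Of 12 genes of FGF9, Nodal and retinoic acid signals upstream of Nanos2, 9 fell and 1 rose (median −1.82): the Nodal targets Lefty2 (−5.48 ± 0.71) and Lefty1 (−4.84 ± 1.03) and Nodal itself (−4.24 ± 0.92) fell, and Fgf9 rose (2.61 ± 0.82). Pum2 and Pum3, which encode RNA-binding proteins, fell, with log2 folds of −1.15 ± 0.24 and −1.15 ± 0.18. Of the CCR4-NOT list 5 of 15 fell and 1 rose (median −0.39), with Cnot1, the scaffold of the complex, at −1.70 ± 0.25 and the deadenylase Cnot7 at −1.28 ± 0.14. Of 12 decapping and P-body genes 4 rose and 3 fell, and of the progenitor list 3 of 11 rose and 3 fell, with the receptor Kit at −2.63 ± 0.45.

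Between arrest (E15.5 and E16.5) and perinatal prospermatogonia (E18.5 and PND0), 3 of the 4 members fell, beside 7.78% of all genes that were lower and 12.2% called in either direction. Nanos2 fell from 4.02 to 96.3 CPM to 0 to 3.04 CPM, without overlap, with log2 fold −5.96 ± 1.10 (SE). That fold rests in part on a pool of E18.5 at 0, and the means of the pools were 36.9 and 1.11 CPM. Nanos3 fell from 12.7 to 353 CPM to 4.94 to 15.1 CPM, with log2 fold −3.52 ± 0.66, and its pools of E16.5 overlapped the later ones. Dnd1 fell from 430 to 494 CPM to 103.6 to 149 CPM, without overlap, with log2 fold −2.22 ± 0.38. The adjusted p of edgeR was 0.000419 for Nanos2, 0.000404 for Nanos3 and 0.000144 for Dnd1. Without replicate 2 of every time-point it was 0.3 for Nanos2 by edgeR. Nanos1 did not pass, with 2.94 to 4.62 CPM before and 3.70 to 10.2 CPM after (log2 fold 0.84 ± 0.64, adjusted p = 0.411 by edgeR).

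The median log2 fold of all genes in that comparison was 0.25, and the somatic marker sum was 108.4 to 727 CPM before and 484 to 1047 CPM after, with 1 of 18 markers higher. Whether somatic RNA has a part in the falls was not tested. Of the decapping and P-body list 4 of 12 genes fell, among them Edc3 (−1.06 ± 0.19), and of the CCR4-NOT list 2 of 15, Cnot9 (−0.81 ± 0.18) and Cnot10 (−0.67 ± 0.14). Pum2 fell (−0.76 ± 0.24).

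From E18.5 and PND0 to PND2 and PND3, when prospermatogonia resume the cell cycle, Nanos2 and Nanos3 rose and Dnd1 and Nanos1 did not pass, beside 14% of all genes that rose and 24.9% called in either direction. Nanos2 had 4.52 to 9.74 CPM at PND2 and PND3, above the 0 to 3.04 CPM of the earlier pools, with log2 fold 4.33 ± 1.03 (SE). This fold again rests in part on the pool of E18.5 at 0, and the means were 6.75 CPM after and 1.11 CPM before. Nanos3 had 61.7 to 96.8 CPM against 4.94 to 15.1 CPM, with log2 fold 3.18 ± 0.65. The edgeR adjusted p was 0.00269 for Nanos2, 0.204 without replicate 2 of every time-point, and 0.000468 for Nanos3. Nanos1 had 14.9 to 23.2 CPM against 3.70 to 10.2 CPM, also without overlap, with log2 fold 1.59 ± 0.64 and adjusted p = 0.0664 by edgeR. Dnd1 had 88.5 to 141.5 against 103.6 to 149 CPM, with log2 fold 0.21 ± 0.37.

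Genes of the spermatogonial stem cell list rose in 7 of 11 cases over the same interval (median log2 fold 2.61, beside −0.24 over all genes). Gfra1, the GDNF co-receptor, rose by 5.04 ± 0.93 and Etv5 by 3.79 ± 0.40 on the log2 scale. Of the CCR4-NOT list 6 of 15 rose and 2 fell (median 0.63), with Btg2 at 2.03 ± 0.45, Cnot9 at 1.17 ± 0.18 and Cnot1 at 1.10 ± 0.24, and Pum2 (0.93 ± 0.24) rose. Stra8 rose by 3.23 ± 0.79, and Dnmt3l fell by 3.39 ± 0.87 on the log2 scale. The somatic marker sum was 484 to 1047 CPM before and 102.3 to 716 CPM after, with 2 of 18 markers lower and Insl3, a Leydig cell gene, at 0 in the later pools. Its part in the rises was not tested.

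None of the members was called by edgeR or by DESeq2 between PND2 and PND3 and PND6 and PND7 (4.13% of all genes were), or between PND6 and PND7 and PND12 and PND14 (12.4%). At an unadjusted p under 0.05 by edgeR the count was 0 of 4 in the first step, beside 5359 of 27426 genes. It was 1 of 4, Nanos2, in the second, beside 7001 of 27426 genes. In the second step Nanos2 went from 10.6 ± 5.45 to 3.06 ± 2.22 CPM (SD, n = 4), with overlapping pools and log2 fold −1.90 ± 0.89 (SE), at edgeR adjusted p = 0.171. Nanos3 was at 71.5 ± 16.9 CPM (SD, n = 4), then 149 ± 11.4 CPM, then 68.2 ± 35.4 CPM, and neither pair of neighbouring groups overlapped. The log2 fold of Nanos3 was 1.20 ± 0.61 (edgeR adjusted p = 0.274) and then −1.23 ± 0.61 (0.197, edgeR). With only the pools compared in the fit, the edgeR adjusted p of Nanos3 was 0.00168 for the first step and 0.0448 for the second. The pools of Dnd1 did not overlap in the second step either, at 145.6 ± 9.35 CPM and then 97.8 ± 31.5 CPM (SD, n = 4). Its log2 fold there was −0.61 ± 0.37 (SE), at edgeR adjusted p = 0.312. How many other genes separate likewise in these steps was not counted. The part of the DNA content sort of PND14 in the second step was not tested.

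In late testes (PND30, PND35 and adult) against PND12 and PND14, all 4 members fell, beside 23% of all genes that were lower and 57% called in either direction. The log2 fold was −4.23 ± 0.61 for Nanos1, −6.50 ± 1.00 for Nanos2, −2.65 ± 0.55 for Nanos3 and −2.14 ± 0.33 for Dnd1 (SE), with edgeR adjusted p of 6.78e-07, 3.65e-06, 0.000154 and 2.62e-06. Fitted folds of Nanos2 rest here on PND30 pools at 0 and do not measure the size of its fall. Its means were 3.06 ± 2.22 CPM (SD, n = 4) before and 0.154 ± 0.356 CPM (n = 6) in the late pools. The 6 late pools of Nanos1 had 0.0354 to 8.91 CPM, without overlap with the 13.9 to 23.3 CPM before. The other late pools stood apart from replicate 1 of the adult, which had the highest level of each member: 8.91 CPM for Nanos1, 0.879 CPM for Nanos2, 32.6 CPM for Nanos3 and 58.3 CPM for Dnd1. Replicate 2 of the adult had 0.410, 0.0213, 5.01 and 11.7 CPM. In replicate 1 Stra8 was at 215 CPM and the somatic marker sum at 822 CPM, against 4.45 and 39.5 CPM in replicate 2. Nanos3 and Dnd1 overlapped the earlier pools through this pool alone, and without it the log2 folds were −5.50, −7.94, −3.41 and −2.79 for Nanos1, Nanos2, Nanos3 and Dnd1. Over all 3 late time-points 10 of 18 somatic markers fell. Their part, and that of the DNA content sorts of PND14 and PND30, was not tested.

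PND30 germ cells were also sorted by DNA content, as 1N (haploid) and 4N cells, which asks whether the transcripts are found in round spermatids or in spermatocytes. Dnd1 had 3.41 and 3.03 CPM in 1N and 8.69 and 6.84 CPM in 4N cells of the 2 pools, and Nanos3 had 5.61 and 4.88 CPM in 1N and 3.70 and 2.66 CPM in 4N cells. The levels of both genes kept their order in both pools and the groups did not overlap. With 2 values in each group this is weak evidence, and how many other genes separate likewise was not counted. The unthinned share of Nanos3-positive cells did not keep its order. It was 36.98% in 1N and 36.13% in 4N cells of replicate 1, and 21.28% and 28.42% in replicate 2. With pool as block, in a fit of only 4 sums, the log2 fold of 1N over 4N was −1.10 ± 0.65 for Dnd1 and 0.89 ± 0.69 for Nanos3. By edgeR or DESeq2 0 of these 2 passed (edgeR adjusted p = 0.184 and 0.318), beside 32.1% of 19167 genes by edgeR. At an unadjusted p under 0.05 by edgeR the count was 0 of 2, beside 8163 of 19167 genes. Nanos1 and Nanos2 did not pass the filter on low counts: Nanos1 was at 0.0513 to 0.238 CPM in these cells and Nanos2 at 0.

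Fetal gonads between E13.5 and E16.5 came in parts proximal (P), central (C) and distal (D) to the mesonephros, which allows the onset of Nanos2 to be looked at in space. At E13.5 Nanos2 had 38.8, 57.1 and 59.9 CPM in P, C and D of replicate 1 and 5.33, 1.67 and 1.97 CPM in replicate 2. At E14.5 it had 70.2, 63.1 and 72.8 CPM in replicate 1 and 94.1, 78.7 and 85.9 CPM in replicate 2. At E15.5 it had 39.5, 47.3 and 30.9 CPM in replicate 1 and 101.02, 85.8 and 105.999 CPM in replicate 2. At E16.5, as it fell, P, C and D had 0.531, 4.55 and 7.57 CPM in replicate 1 and 16.48, 7.11 and 0.395 CPM in replicate 2. Between P and D the direction was thus opposite in the 2 replicates at all 4 time-points.

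Over the 8 pools, D was above P in 4 for Nanos2, 4 for Nanos3, 4 for Nanos1 and 5 for Dnd1. The log2 fold of D over P, with pool as block, was −0.14 ± 0.40 for Nanos2, 0.02 ± 0.13 for Nanos3, −0.09 ± 0.81 for Nanos1 and 0.09 ± 0.06 for Dnd1 (SE). The 95% interval of this fold was −0.24 to 0.27 for Nanos3 and −0.93 to 0.65 for Nanos2. These intervals are for a mean over pools of opposite directions and do not bound the difference within a pool. At E15.5 Nanos3 had 182 CPM in D and 221 CPM in P of replicate 1, and 416 and 314 CPM in replicate 2. No member was called by edgeR, DESeq2 or at an unadjusted p under 0.05, and 0.0% of 14056 genes were called. At an unadjusted p under 0.05 the count was 528 genes, and DESeq2 called 13.

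**Figure D2:**
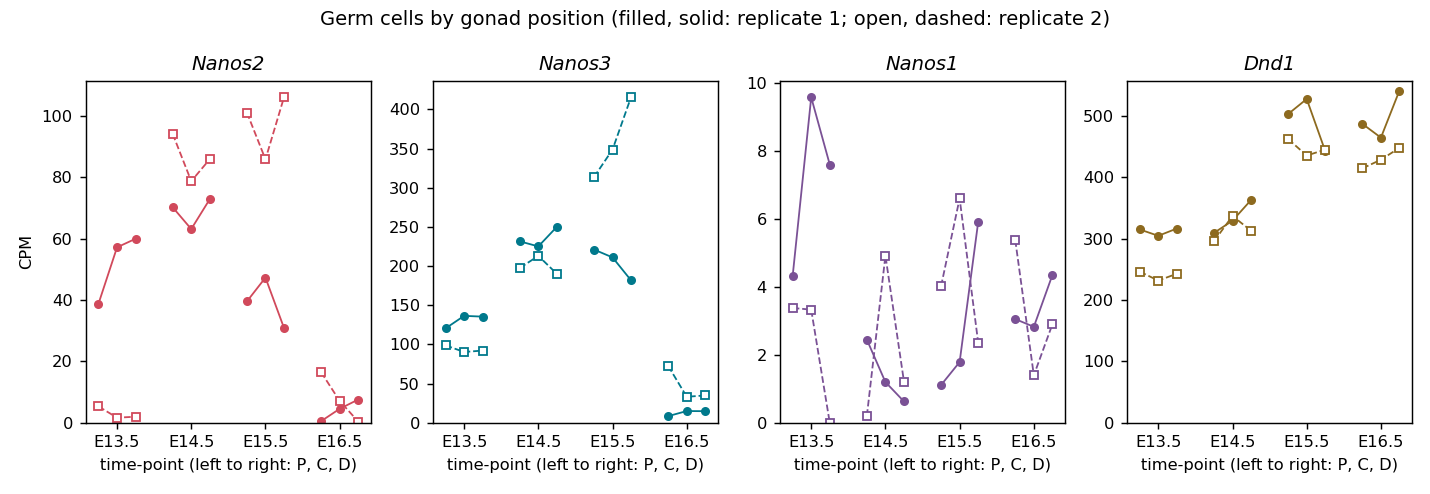
Level (CPM, linear axis) of each gene in germ cells of the proximal (P), central (C) and distal (D) parts of the gonad, from left to right at each time-point, with filled circles and solid lines for replicate 1 and open squares and dashed lines for replicate 2. For Nanos2 at E13.5 the replicates (38.8 to 59.9 CPM and 1.67 to 5.33 CPM) lie further apart than the positions within either, whereas at E16.5 the positions of replicate 2 span 0.395 to 16.48 CPM.

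Sorting gates allow a comparison with gonadal somatic cells that uses no transcript to define the cells. The positive and negative gates of the same 16 pools of E11.5 to E18.5 were compared whole, with pool as block, and 3 of the 3 members tested were higher in the positive gate, beside 34.5% of 15243 genes (61.1% called in either direction, median log2 fold 0.17). Dnd1 was higher in 16 of 16 pools, at 106.9 to 489 CPM (median 262) against 2.39 to 54.9 CPM (median 16.1), log2 fold 4.15 ± 0.34. Nanos3 was higher in 15 of 16, at 4.94 to 351 CPM (median 103.7) against 0 to 34.3 CPM (median 11.7), log2 fold 2.72 ± 0.43. Only for Dnd1 did the ranges of the gates not overlap. The edgeR adjusted p was 5.83e-09 for Dnd1 and 2.03e-05 for Nanos3.

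Nanos1 was higher in the positive gate in 14 of 16 pools, at 1.49 to 10.0 CPM against 0 to 22.3 CPM, with log2 fold 4.11 ± 0.95 and edgeR adjusted p = 0.000928. Its highest negative pool, replicate 1 of E11.5, held its UMIs in 2 of 30 cells, nearly all of them in 1 cell. Without the pool block the log2 fold of Nanos1 was 0.88, at edgeR adjusted p = 0.36. Nanos2 did not pass the filter on low counts. In the fit without that filter its log2 fold was 6.09 ± 1.01 (edgeR adjusted p = 9.75e-05), with 11 pools higher in the positive gate and 5 at 0 in both.

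In the negative gate at E11.5 the pools had 33.6 and 34.3 CPM of Nanos3 beside 21.8 and 16.6 CPM of Dnd1, and in the positive gate 109.03 and 119.1 CPM of Nanos3 beside 271 and 247 CPM of Dnd1. The ratio of Nanos3 to Dnd1 was higher in the negative than in the positive gate in 13 of 16 pools, 9 of 10 at E11.5 to E15.5. The source of the negative-gate transcripts was not tested. Negative cells had the lower median UMI count in 15 of 16 pools, at 89004 to 246818 against 223436 to 382885, and the exception was replicate 2 of E13.5 (241900 against 223436).

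**Figure D3:**
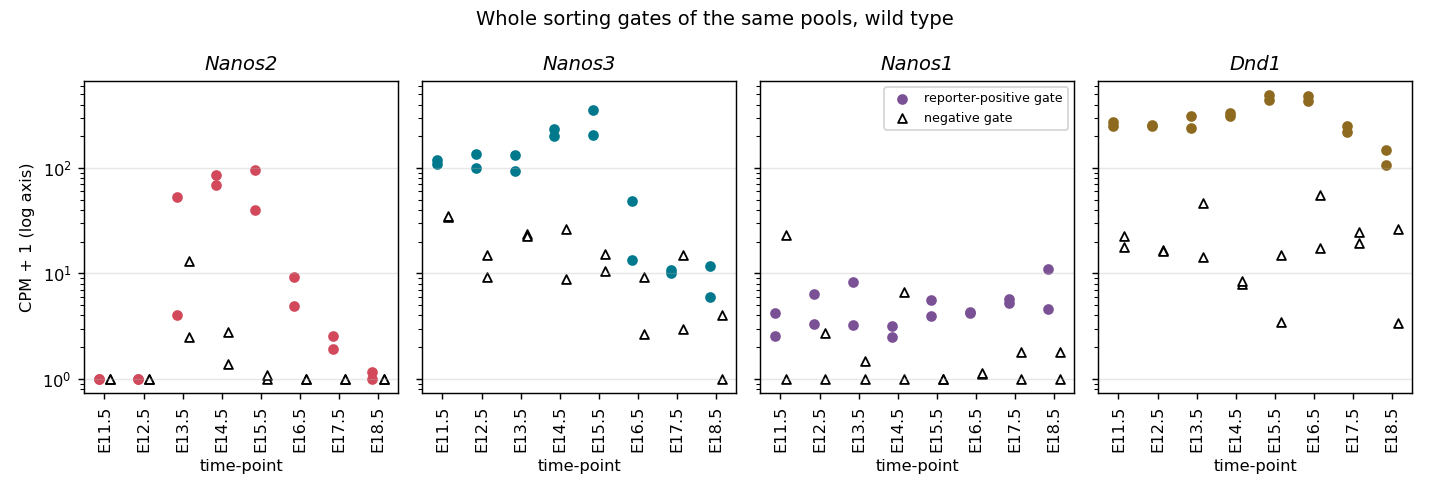
Level of each gene (CPM + 1, log axis) in the reporter-positive gate (filled circles) and the negative gate (open triangles) of the 16 wild-type pools of E11.5 to E18.5, by time-point. Dnd1 is at least 106.9 CPM in every positive pool and at most 54.9 CPM in every negative pool, whereas the gates of Nanos3 overlap, and Nanos1 has 1 high negative pool at E11.5 (22.3 CPM).

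Within pools, Nanos2-positive germ cells had more Nanos3. In the 6 pools of E13.5 to E16.5 with enough cells of both kinds, the level of Nanos3 was higher in cells with a Nanos2 UMI in all 6, with a median ratio of 1.82. At PND0 to PND14 it was higher in 19 of 22 pools, with a median ratio of 1.33. In replicate 1 of E13.5, 70 Nanos2-positive cells had 144.3 CPM of Nanos3 and 21 negative cells 81.4 CPM. Dnd1 was higher in the Nanos2-positive cells in 4 of 6 fetal pools (median ratio 1.01) and 20 of 22 postnatal pools (1.13), and Nanos1 in 5 of 6 (1.24) and 6 of 22 (0.862). Nanos2-positive cells had the higher median UMI count in 6 of 6 and 20 of 22 pools, and these counts are given without a test.

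Spermatogonial stem cells are the postnatal site where Nanos2 is known to act, so germ cells of PND3 to PND8 were split by Gfra1, which is no member and marks the stem cell end of the undifferentiated spermatogonia. Cells with at least 30 CPM of Gfra1 were set against cells under 10 CPM in the 10 pools with at least 10 cells of each, a split chosen after the data were seen. Nanos2 had 5.16 to 31.2 CPM (median 10.47) in Gfra1-high and 1.28 to 13 CPM (median 6.69) in Gfra1-low cells. It was higher in Gfra1-high cells in 9 of 10 pools, though the ranges overlapped, and was the only member called, beside 5.99% of 14994 genes that were higher and 10.1% called in either direction. Its log2 fold was 1.09 ± 0.26 (SE), with edgeR adjusted p = 0.00923 with pool as block. With at least 20 cells in each class the edgeR adjusted p was 0.0972, and without replicate 1 of each time-point 0.543.

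Nanos3, Nanos1 and Dnd1 were higher in Gfra1-high cells in 4, 4 and 5 of the 10 pools. The log2 fold was −0.13 ± 0.12 for Nanos3, −0.34 ± 0.21 for Nanos1 and −0.01 ± 0.06 for Dnd1. For Dnd1 the 95% interval was −0.13 to 0.10. Median UMI counts per cell were 184132 to 432411 in the Gfra1-high and 125692 to 427846 in the Gfra1-low classes.

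Of the other stem cell genes tested in the split, 7 of 9 were higher in Gfra1-high cells (median log2 fold 1.62, beside −0.01 over all genes), among them T (3.27 ± 0.49), Lhx1 (2.76 ± 0.38) and Etv5 (2.08 ± 0.27). Of the progenitor list 8 of 10 were lower (median −0.58), among them Sox3 (−1.27 ± 0.28), Rarg (−1.23 ± 0.17), Kit (−1.04 ± 0.22) and Stra8 (−0.49 ± 0.10). Of the CCR4-NOT list 3 of 15 were higher, with the adaptor Tob1 at 0.79 ± 0.14, Cnot6l at 0.31 ± 0.10 and Cnot2 at 0.24 ± 0.07.

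**Figure D4:**
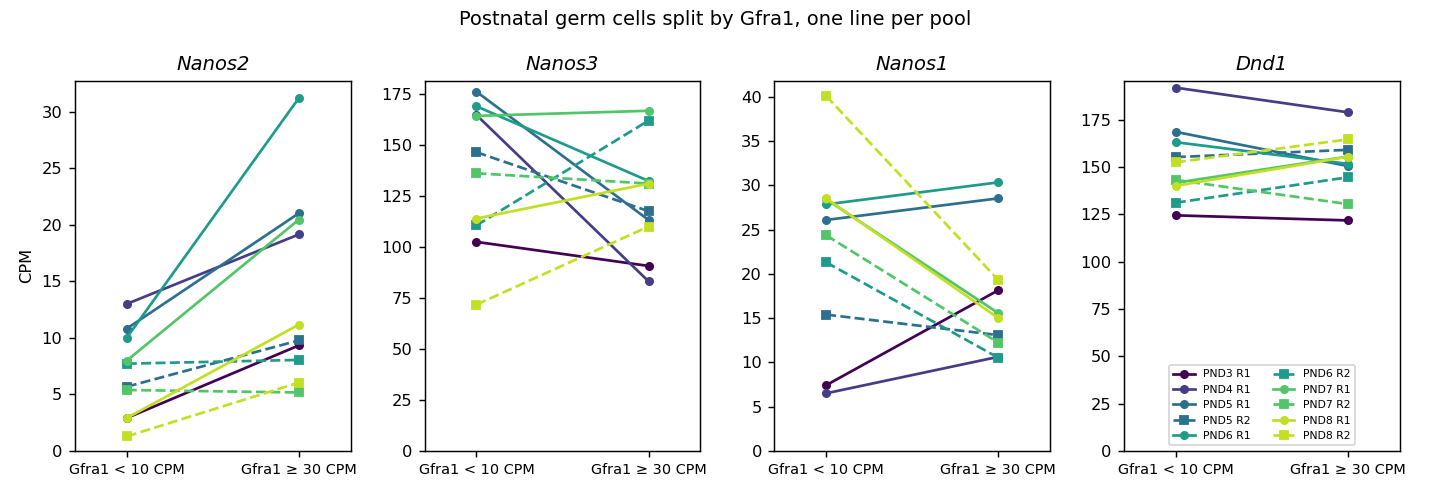
Level (CPM) of each gene in germ cells of PND3 to PND8 with Gfra1 under 10 CPM (left) and at least 30 CPM (right), 1 line for each of 10 pools, solid for replicate 1 and dashed for replicate 2. The Nanos2 lines rise to the right in 9 of 10 pools, while those of Dnd1 stay between 121.8 and 192 CPM with no common direction.

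Helq encodes a DNA helicase, and Helq null germ cells of E11.5 to E18.5 were set against wild type to see whether the members differ with genotype. The deletion is in the first exon and the counts come from the 3′ end, so the Helq level (15.9 to 40.3 CPM in null and 15.8 to 27.8 CPM in wild-type pools) does not check the genotype. At E15.5, when Dnd1 is highest, the 2 null pools had 271 and 323 CPM of Dnd1 and the wild-type pools 447 and 489 CPM. At E14.5 the null pools had 204 and 275 against 316 and 334 CPM, at E13.5 they had 187 and 247 against 311 and 240 CPM, with overlap, and at E12.5 the only null pool had 145.9 against 248 and 254 CPM. At E11.5 and E18.5 the single null pools had 281 and 126.5 CPM, against 247 to 271 and 111.9 to 149 CPM.

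Over 9 null and 12 wild-type pools with time-point as covariate, the log2 fold of Dnd1 was −0.39 ± 0.11 (SE), at adjusted p = 0.0941 by edgeR. By edgeR 0 of the 4 members were called, beside 1.05% of 16408 genes. At an unadjusted p under 0.05 by edgeR the count was 1 of the 4, Dnd1, beside 1929 of 16408 genes. DESeq2 on the same sums gave Dnd1 −0.40 with an adjusted p of 0.0265. Nanos2 had 7.53 and 71.7 CPM in the null pools of E13.5 and 3.05 and 52.7 CPM in the wild-type ones, and its log2 fold over all time-points was 0.58 ± 0.61. That of Nanos3 was 0.27 ± 0.20 and that of Nanos1 0.26 ± 0.34. Somatic marker sums lay between 38.3 and 542 CPM in the null and 17.96 and 1047 CPM in the wild-type pools.

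**Figure D5:**
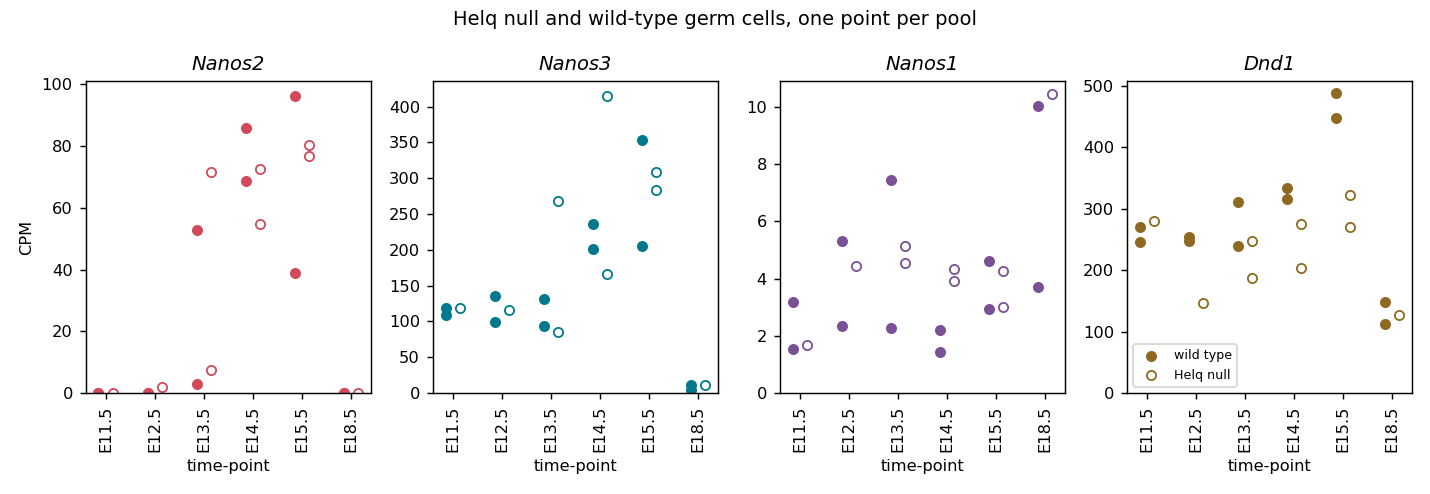
Level (CPM) of each gene in wild-type (filled) and Helq null (open) germ cell pools by time-point. Dnd1 in the null pools lies below the wild-type pools at E12.5, E14.5 and E15.5, overlaps them at E13.5 and lies within or above them at E11.5 and E18.5, while Nanos2 differs between the 2 replicates of E13.5 in both genotypes.

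Genes with the most similar pattern over the 57 wild-type pools were ranked by Pearson r of log2(CPM + 1), among 11009 genes with a mean of at least 10 CPM, as a description that shares library and depth between the genes. For Nanos2 they were Edc3 (r = 0.845), Pcif1 (0.836), Vipas39 (0.793), Kctd18 (0.789) and Rnf114 (0.776). For Nanos3 they were Cenpt (0.849), Rps6ka3 (0.836), Vps41 (0.830), Mtf2 (0.822) and Aldh16a1 (0.822). For Dnd1 they were St3gal2 (0.929), Acadm (0.921), Afg3l1 (0.916), Ruvbl1 (0.914) and Atad2 (0.912), and for Nanos1 Bik (0.908), Zbtb16 (0.897), Pnma5 (0.896), Rbfa (0.895) and 4933427D06Rik (0.892). Edc3 encodes an enhancer of mRNA decapping and Zbtb16 a factor of undifferentiated spermatogonia. Among the members, r was 0.700 between Nanos3 and Dnd1, 0.480 between Nanos2 and Nanos3, 0.412 between Nanos1 and Nanos2, 0.341 between Nanos2 and Dnd1, 0.214 between Nanos1 and Nanos3 and 0.105 between Nanos1 and Dnd1.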

How the data were processed

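Cells were profiled by a modified single-cell STRT-seq. Per the labels and the study's methods, the authors assigned reads with UMI-tools, mapped them with STAR to mm10 and counted with featureCounts, and the deposited table holds raw UMI counts per gene and cell. Labels of the 147 libraries give no condition, so time-point, genotype, replicate, gate, position and DNA content were taken from the deposited cell names. Cells with more than 2000 genes and 10000 to 1000000 UMIs were kept, and no doublet caller was run because cells were sorted or picked singly. UMIs were summed per pool with at least 10 cells and scaled to CPM. Comparisons used edgeR quasi-likelihood tests (TMM, filterByExpr, Benjamini-Hochberg, false discovery rate 0.05), with DESeq2 as alternative. Those of E13.5 with E12.5, positions, gates, DNA content, the Gfra1 split and Helq were also run on simulated counts. The simulated counts had the same spread for all genes, and so do not cover genes that vary more between pools. No other comparison was simulated. Shares were expected shares after thinning to 50000 UMIs. The members and gene lists were chosen with earlier results of these data known. Named genes were the 4 members, the 5 genes most like each by Pearson r, up to 3 called genes in each direction per list, and Gfra1, Kit, Stra8, Dazl and Dnmt3l. Other genes named from the lists were chosen after their values were seen. Floors of 3 UMIs cover counting error only.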

Additional observations from a re-analysis of the deposited data

Results flagged for a closer look

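Of 52 groups of 4 to 10 pools checked for a pool far from the others, 9 held one. The groups mix time-points and the same pool can stand out for several genes, so no rate by chance is set beside this count. Replicate 1 of the adult was such a pool for all 4 genes among PND30, PND35 and adult, at 8.91 CPM for Nanos1, 0.879 CPM for Nanos2, 32.6 CPM for Nanos3 and 58.3 CPM for Dnd1, and its somatic marker sum was 822 CPM.

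Nanos2 stood apart in replicate 3 of E10.5 among E9.5 and E10.5 (0.945 CPM), Nanos3 in replicate 1 of PND3 among PND2 and PND3 (96.8 CPM), and Dnd1 in replicate 1 of PND6 among PND6 and PND7 (159 CPM). Nanos1 stood apart in replicate 2 of PND14 among PND12 and PND14 (13.9 CPM) and in 1 Helq null pool (10.4 CPM).

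The mean difference of Dnd1 between distal and proximal germ cells was 35.4 CPM at E14.5 and 43.9 CPM at E16.5 in both replicates of each, and −38.8 CPM at E15.5, in the opposite direction in both replicates. The difference between time-points was not tested.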

How the results depend on the processing

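Of 459 alternative values for single genes, 414 kept their direction and their side of the threshold, 12 newly passed it, 10 no longer passed it, and 23 changed sign, all of them for log2 folds that passed neither before nor after. With only the pools compared in the fit, edgeR gave log2 folds of 12.37 for Nanos2 at onset (not passed), and passed Dnd1 in arrest (0.53), Nanos1 at re-entry (1.57), and Nanos3 at PND6 and PND7 (1.16) and at PND12 and PND14 (−1.17). DESeq2 passed Dnd1 in arrest (0.86) and in Helq null cells (−0.40). With germ cell markers required to be 3 times the somatic ones, Dnd1 in arrest (0.57), and Nanos3 (−1.54) and Dnd1 (−0.72) at PND12 and PND14 passed, the latter step also for Nanos3 with at least 20 cells (−1.23). Nanos2 no longer passed at onset without replicate 1 of E13.5 (10.39, against 14.39 without replicate 2), or in the Gfra1 split with at least 20 cells (1.23) or without the pool block (1.05), and Nanos1 in the gates without the block (0.88). Without 1 replicate number, the log2 fold of Nanos2 ranged from 10.23 to 14.33 at onset, from −8.83 to −4.44 for its fall to E18.5 and PND0, from 3.75 to 6.57 for its rise after birth and from 0.74 to 1.32 in the Gfra1 split. That of Nanos3 ranged from −1.65 to 0.04 in arrest and from −1.38 to −0.90 at PND12 and PND14. Of the changes of sign, DESeq2 and its size factors gave 0.22 for Nanos1 in arrest and −0.18 for Dnd1 at re-entry, no filter gave −0.03 for Nanos3 in gonadal against migrating PGCs and 0.08 for Nanos1 at PND12 and PND14, and no replicate block gave 0.07 for Nanos1 and for Nanos2 between positions. In the Gfra1 split, at least 20 cells gave 0.08 for Nanos3 and 0.04 for Dnd1, and the stricter germ cell rule 0.02 for Dnd1. Without 1 replicate, Nanos3 ranged from −0.27 to 0.14 in gonadal against migrating PGCs, from −0.15 to 0.23 at onset, from −0.11 to 0.17 between positions and from −0.35 to 0.22 in the Gfra1 split. Nanos1 ranged from −0.58 to 1.01 at onset, −0.79 to 0.81 in arrest, −0.28 to 0.30 at PND12 and PND14 and −0.85 to 0.56 between positions. Nanos2 ranged from −0.87 to 0.62 between positions, and Dnd1 from −0.14 to 0.45 at re-entry and −0.05 to 0.05 in the Gfra1 split. These fits pool the spread, so that a lone pool is assumed to vary like the others. Fitted folds of Nanos2 at onset, in arrest and in late testes rest on pools at 0 and are no bound. Those for its fall to E18.5 and PND0 and its rise after birth rest in part on a pool of E18.5 at 0.

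The share of tested genes that were called moved by over 1.5 times, in numbers of genes, as follows. With DESeq2 it was 9.28% for gonadal against migrating PGCs (4.03% by edgeR), 1.8% at onset (0.128%), 9.92% at PND6 and PND7 (4.13%), 0.0925% between positions (0.0%) and 3.27% for Helq (1.05%). With only the pools compared it was 13.3%, 0.0137% at onset, 31.4% at E18.5 and PND0 (12.2%), 17.8% at PND6 and PND7 and 7.17% at PND12 and PND14 (12.4%). With no filter it was 7.26% at E18.5 and PND0, 0.0428% between positions and 1.25% for Helq. With the stricter germ cell rule it was 15.8% at re-entry (24.9%) and 2.73% at PND6 and PND7, and with at least 20 cells 0.244% at onset and 2.47% in the Gfra1 split (10.1%). Onset gave 0.528% without replicate 2 of E13.5 and 0.0146% without replicate 1. Leaving out 1 replicate number gave 0.334% to 1.18% for gonadal against migrating PGCs, 0.0188% to 0.0261% at onset, 16.7% to 18.1% in arrest (44.5%), 0.533% to 2.72% at E18.5 and PND0, 3.46% to 7.2% at re-entry, 0.0526% to 0.866% at PND6 and PND7, 0.207% to 11% at PND12 and PND14, 29.2% to 30.4% in late testes (57%), 0.0493% to 0.144% for Helq and 2.73% to 3.39% in the Gfra1 split. In late testes it was 57.9% without replicate 1 of the adult. The cause was not tested, other than that these fits hold fewer pools.

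Replicate numbers did not pair the Helq pools, since deviations of same-numbered pools correlated at −0.36, −0.52 and −0.14. With time-point and replicate block the fit called 0.384% of genes, and with the crossed replicate block, added after the data were seen, 0.798%. The Gfra1 split called 3.69% of genes without the replicate block by pool. The mean of single-cell CPM for Nanos1 at PND10 was 32.4. Its share there was 71.4% thinned to 100000 UMIs, 81.2% unthinned and 72.5% with at least 2 UMIs, and that of Nanos2 at E14.5 was 83.3%, 89.3% and 84%. The planned contrast of Gfra1-high with Stra8-high cells was not run, because no pool held 10 cells of both classes.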

Other observations

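Among all cells of E6.5 that passed the filters, whatever their markers, Dnd1 was at 17.8 CPM in replicate 1 and 55.2 CPM in replicate 2, and Nanos3 at 0.890 and 15.1 CPM. No UMI of Nanos2 was counted in either. In the cells counted as germ cells in the same replicates Dnd1 was at 20.2 and 280 CPM and Nanos3 at 0 and 81.5 CPM.

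At PND30, cells sorted as 2N had 4.49 and 2.99 CPM of Nanos3 and 5.35 and 9.35 CPM of Dnd1 in the 2 pools, and 190 cells of replicate 2 with no stated DNA content had 3.47 and 14.2 CPM.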
